A study of Mus musculus with 2 samples.

Results

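Conventional CD4 T cells are the CD4-positive T cells without Foxp3, the factor of regulatory T cells. They were taken from single-cell RNA profiles of the lamina propria of the mouse colon, the layer of connective tissue and immune cells beneath the epithelium. Members were chosen by measured UMIs, each UMI being a molecular barcode that counts 1 captured RNA molecule once. A cell was a member when it carried at least 1 UMI of Cd4, at least 2 UMIs of Cd3d, Cd3e and Cd3g together, and no UMI of Cd8a, Cd8b1, Foxp3, Csf1r, C1qa or C1qb. Cells were first limited to 200 to 6000 detected genes and at most 15% of UMIs from mitochondrial genes. Of 20052 kept cells 1308 were members. The rule found 1217 CD4 T cells among 11885 kept cells of the library labelled Runx3_fl, a share of 10.2% (95% exact binomial interval 9.70 to 10.8). In the library labelled Runx3 it found 91 among 8167, a share of 1.11% (0.898 to 1.37).

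The study asked how loss of the transcription factor Runx3 in macrophages affects the colon. It compared RUNX3 fl/fl mice, whose Runx3 alleles carry loxP sites, with RUNX3 fl/fl-Lyz2-Cre littermates, in which Cre is expressed from the lysozyme 2 gene of myeloid cells, so that T cells are not its target. Both groups carried the floxed allele. The titles do not say which library had Cre, and the libraries are therefore called by their titles. The study describes pools of male mice, and the labels give the cells as CD11b-positive cells of the gut lamina propria. With 1 library per group no test was made, every interval covers counting error only, and no difference between the libraries has a replicate check.

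CD4 T cells recognize peptides on MHC class II molecules and help other cells through surface ligands such as CD40 ligand and through cytokines. TH1 cells are driven by T-bet and make interferon gamma, TH2 cells are driven by GATA3 and make IL-4, IL-5 and IL-13, TH17 cells make IL-17, and follicular helper (TFH) cells make IL-21 and help B cells. In the gut wall, resident effector cells carry receptors such as CXCR6, while naive and central memory cells carry CCR7 and travel through lymph nodes.

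Some facts of the libraries bear on the results. They held 12968 cells with 146204416 UMIs and 8953 cells with 75478164 UMIs, and the CD4 T cells had medians of 13057 and 7345 UMIs. A total of 37 cell barcodes occurred in both libraries, 2 of them on CD4 T cells of library Runx3_fl and 0 on those of library Runx3. Xist, the RNA of the inactive X chromosome of female cells, was detected in 41.8% of CD4 T cells of library Runx3_fl and in 1.10% of those of library Runx3, while the study describes male mice. The Y-linked gene Uty was detected in 55.9% and 85.7%. Itgam, which encodes CD11b, was at 46.1 CPM in the CD4 T cells of library Runx3_fl, 38.9 CPM in CD8 T cells, 36.7 CPM in B cells, 149 CPM in NK cells and 92.1 CPM in the other kept cells. The labelled marker was thus lower in T and B cells than in NK cells. CPM is a gene's summed UMIs in a cell class scaled to the total UMIs of that class.

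Markers that the rule did not use were frequent in library Runx3_fl. Icos, a costimulatory receptor of activated T cells, was found in 99.2% of the 1217 cells, Cxcr6 in 86.4% and Cd40lg in 54.5%, and 4 cells had no UMI of any of these. In library Runx3 they were found in 51.6%, 13.2% and 26.4% of the 91 cells, and 36 cells had none of them. The markers of the label were thus detected in fewer of its cells. These shares were not thinned to equal depth, and the median depths were 13057 and 7345 UMIs in libraries Runx3_fl and Runx3. The limits of the rule were met narrowly by some cells. In library Runx3_fl 279 cells had exactly 1 Cd4 UMI and 17 had exactly 2 Cd3 UMIs, and in library Runx3 42 and 17 cells did. Just outside the rule in library Runx3_fl lay 401 T cells with neither Cd4 nor Cd8 UMIs, 101 with UMIs of both, 16 with a Foxp3 UMI and 16 with Cd4 but 1 Cd3 UMI.

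UMIs of other cell types were present. In library Runx3_fl 129 of 1217 CD4 T cells (10.6%, interval 8.93 to 12.5) carried at least 5 UMIs of the MHC class II genes H2-Aa, H2-Ab1 and Cd74, and in library Runx3 35 of 91 did (38.5%, interval 28.4 to 49.2). The 10 dendritic cell markers summed to 584 and 2117 CPM in the CD4 T cells of the 2 libraries, with none of the 10 at 0. The 8 macrophage markers summed to 35.0 and 131 CPM, with 0 and 2 of them at 0, against 1169 and 2237 CPM in the other kept cells. The number of genes past the fold was therefore also counted without cells that carried 5 or more MHC class II UMIs. Below, those are called the cells with MHC class II UMIs, and the other kept cells were not limited in this way. This was done for the contrasts of CD4 T cells with other classes in library Runx3_fl and between the libraries. It was not done for counts over gene lists or for the contrasts within library Runx3 and in CD8 T and B cells. The part of doublets and free RNA in the differences was not tested.

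Against the 10668 other kept cells of library Runx3_fl, CD4 T cells were high in the ligands and receptors of T cell help. Cd40lg, the ligand by which helper T cells activate B cells and macrophages, was at 89.6 CPM (95% Poisson interval 85.2 to 94.1) in CD4 T cells and 5.53 CPM (5.11 to 5.97) in the others. Tnfrsf4, which encodes the costimulatory receptor OX40, was at 282 against 23.6 CPM. Icos was at 1480.5 against 234 CPM and the transcription factor Maf at 519.8 against 72.7 CPM. A gene was compared when it reached 50 CPM and was found in 10% of the cells of either class, and it was past the fold at an absolute log2 ratio of 1, taken on CPM plus 1, a scale that understates the difference of low genes. Of 4056 such genes 711 (17.5%) were past the fold, 218 higher in CD4 T cells (5.37%) and 493 lower (12.2%). The genes of the rule were left out. Without the CD4 T cells that carried 5 or more MHC class II UMIs the number was 742, with all 10668 other kept cells retained.

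Of 20 genes of the T cell receptor complex and its signalling, 16 passed the filter, 14 were past the fold upwards and 0 downwards, with a median log2 ratio of 1.70 beside 0.19 over all genes. Of 11 costimulation and activation genes 8 were past it upwards (Cd40lg, Tnfrsf4, Icos, Slamf1, Tnfrsf18, Il2ra, Cd28 and Cd27), with a median of 1.64. Cell cycle genes were also on this side, with 5 of 11 past the fold and a median of 0.96. The lower side was led by myeloid genes. Lyz2, the lysozyme of macrophages, was at 15.0 CPM in CD4 T cells and 878 CPM in the others. Because Cd3, Cd4 and macrophage genes formed the classes, these counts describe the gate.

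CD8 T cells of the same library share the receptor complex. Those 1224 cells had at least 2 Cd3 UMIs, a Cd8a or Cd8b1 UMI and no UMI of Cd4 or Foxp3, and their median depth was 13245 UMIs. Most genes were within the fold between the classes. Of 3722 genes 112 (3.01%) were past it, 83 higher in CD4 T cells (2.23%) and 29 lower (0.779%), and without the cells with MHC class II UMIs the number was 116. The median gene had a log2 ratio of 0.02.

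**Figure D1:**
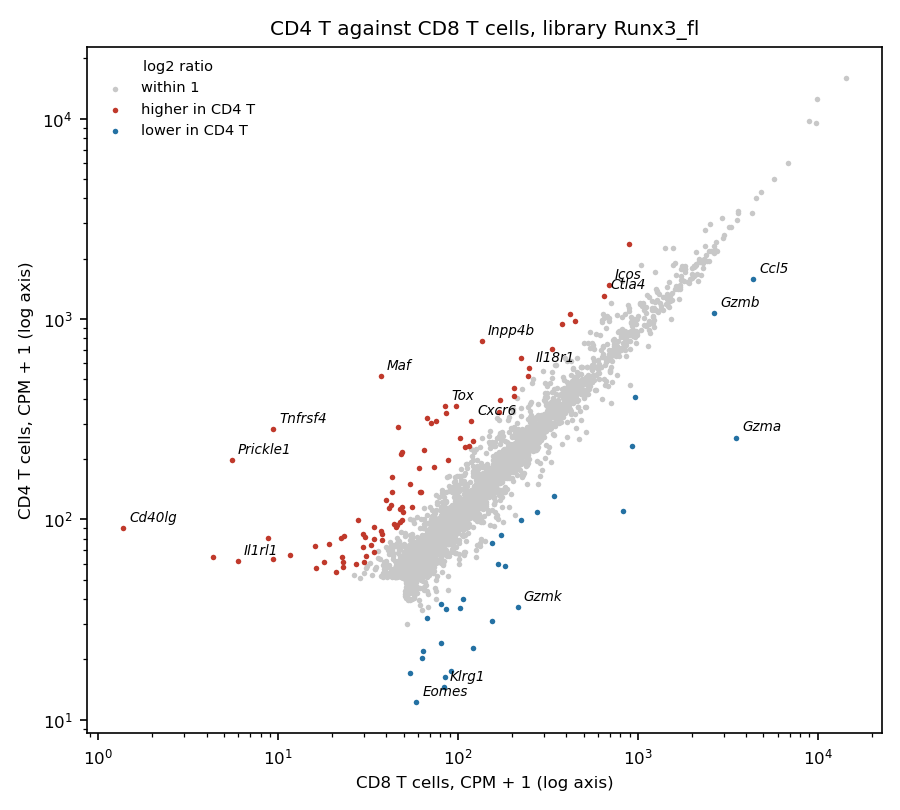
Summed level of each of 3722 genes in CD8 T cells (x axis) and CD4 T cells (y axis) of library Runx3_fl, in CPM plus 1 on log axes, with genes past a log2 ratio of 1 in colour. Cd40lg, Prickle1, Tnfrsf4 and Maf lie far above the diagonal and Gzma and Gzmk below it, while most genes lie within the fold.

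Helper ligands and receptors led the higher side. Cd40lg (X chromosome, 57212143 to 57224042 in GRCm38) was at 89.6 CPM in CD4 T cells from 1566 UMIs and at 0.377 CPM (0.152 to 0.777) in CD8 T cells from 7 UMIs. Its log2 ratio was 6.04, and the interval of the ratio without the added CPM was 6.85 to 9.21. Tnfrsf4 (chromosome 4, 156013843 to 156016612) was at 282 CPM (274 to 290.0) against 8.35 CPM (7.08 to 9.77), a log2 ratio of 4.92. Tnfrsf4, Ctla4, Tnfrsf18 and Il2ra are also markers of regulatory T cells. In the 16 T cells with Cd4 and Foxp3 UMIs Tnfrsf4 was at 475 CPM, and in the 401 T cells with neither Cd4 nor Cd8 UMIs at 107 CPM. The 8 regulatory T markers summed to 2435 CPM in the CD4 T cells, with Foxp3 at 0 by the rule, 7238 CPM in the 16 cells and 1918 CPM in the 401. With each cell thinned to 2000 UMIs, Tnfrsf4 was detected in 33.6% of CD4 T cells, 1.06% of CD8 T cells and 0 of 116 B cells, which allows a share of up to 2.59% with a UMI.

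Other activation receptors differed by less. Icos was at 1480.5 CPM in CD4 T cells and 688 CPM in CD8 T cells (log2 ratio 1.10, interval 1.07 to 1.14). Ctla4, an inhibitory receptor for B7 ligands, was at 1309 and 648 CPM, a ratio of 1.01. Slamf1 and Tnfrsf18, which encodes GITR, had ratios of 1.48 and 1.46. In all, 5 of 11 costimulation and activation genes were past the fold upwards and 0 downwards, with a median of 0.69. Of the checkpoint genes, which restrain T cells, 3 of 7 were, namely Tox, Btla and Ctla4, with a median of 0.83. Tox, a nuclear factor of CD4 lineage choice and of exhausted T cells, was at 368 against 83.7 CPM. Pdcd1, which encodes PD-1, was low in both classes at 37.2 and 21.3 CPM.

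Ifng, which encodes interferon gamma (chromosome 10, 118441046 to 118445892), was carried by both T cell classes and by NK cells. It was at 503 CPM (493 to 514) in CD4 T cells, 259 CPM (252 to 267) in CD8 T cells, 521 CPM (506 to 536) in NK cells and 12.8 CPM (7.17 to 21.1) in B cells. At 2000 UMIs per cell it was found in 36.9% of CD4 T cells (interval 34.2 to 39.7), 30.0% of CD8 T cells, 52.5% of NK cells and 2.59% of B cells, a class that should lack it. Without thinning the shares were 75.0%, 73.6%, 84.8% and 3.45%. The B cells were chosen with UMIs of Cd79a and Ms4a1 and no Cd3 UMI. Droplets with Cd3 RNA were thus left out of them, and their share can understate a background of T cell RNA. The log2 ratio of CD4 over CD8 T cells was 0.95, just short of the fold. Ifng and Icos each overlap another annotated gene on the same strand, Gm49751 and Gm37039, and reads there could have been split between them. Other genes of this report, among them Itgam, Ctla4, Stat4 and Cbfb, also have such overlaps.

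The other TH1 genes were mostly near their levels in CD8 T cells. Tbx21, which encodes T-bet, was at 104 CPM in CD4 T cells and 99.3 CPM in CD8 T cells, a log2 ratio of 0.07 (interval -0.02 to 0.16). Il12rb2, the inducible chain of the IL-12 receptor, was at 445 and 339 CPM, and Stat4, which signals from it, at 704 and 569 CPM. The IL-18 receptor chain Il18r1 stood further apart, at 569.8 and 248 CPM, a ratio of 1.20 (1.15 to 1.25). Of 13 TH1 genes that passed, 1 was past the fold upwards (Il18r1) and 2 downwards (Eomes and Ccl5), with a median of 0.26.

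The main TH17 and TH2 cytokine genes were at or near 0, while Il22 was not. Il17a had 45 UMIs in all 1217 cells (2.57 CPM) and Il4 had 2 UMIs. Il5, Il13 and Ccr6 had 0, which allows up to 0.172 CPM. Il22, which TH17 cells among others make, was at 14.1 CPM from 247 UMIs, against 0.162 CPM in CD8 T cells and 11.7 CPM in the other kept cells. Gata3, which T cells also use outside TH2 cells, was at 94.2 CPM against 64.9 CPM in CD8 T cells. A pair of genes tied to tissue repair was on the CD4 side. Il1rl1 (chromosome 1, 40429570 to 40465415), the receptor for the alarmin IL-33, was at 60.8 CPM (57.2 to 64.6) in CD4 T cells and 4.95 CPM (3.99 to 6.08) in CD8 T cells, a log2 ratio of 3.38. Areg, which encodes the epithelial growth factor amphiregulin, was at 44.0 and 2.91 CPM, below the filter. Both are among 7 innate lymphoid cell markers, which summed to 607 CPM in CD4 T cells and 396 CPM in CD8 T cells. The same markers summed to 1105 CPM in the 16 T cells with Cd4 and Foxp3 UMIs. In the 401 T cells with neither Cd4 nor Cd8 UMIs the sum was 762 CPM.

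Several helper cytokines were on the CD4 side too, at low levels that did not reach the filter. Il21 was at 17.7 CPM in CD4 T cells from 310 UMIs and at 0.162 CPM in CD8 T cells from 3 UMIs, with 0 UMIs in NK cells. Tnfsf8, which encodes the ligand of CD30, was at 45.9 and 4.52 CPM, and Tnfsf11, which encodes RANKL, at 43.8 and 2.69 CPM. Il10 was at 33.7 and 7.22 CPM, but at 66.8 CPM in the other kept cells. The TFH genes Bcl6 and Cxcr5 were at 23.0 and 3.32 CPM in CD4 T cells and 26.0 and 2.05 CPM in CD8 T cells. Maf, which controls Il10 and Il21 in helper T cells, was at 519.8 against 36.2 CPM, a log2 ratio of 3.81.

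**Figure D2:**
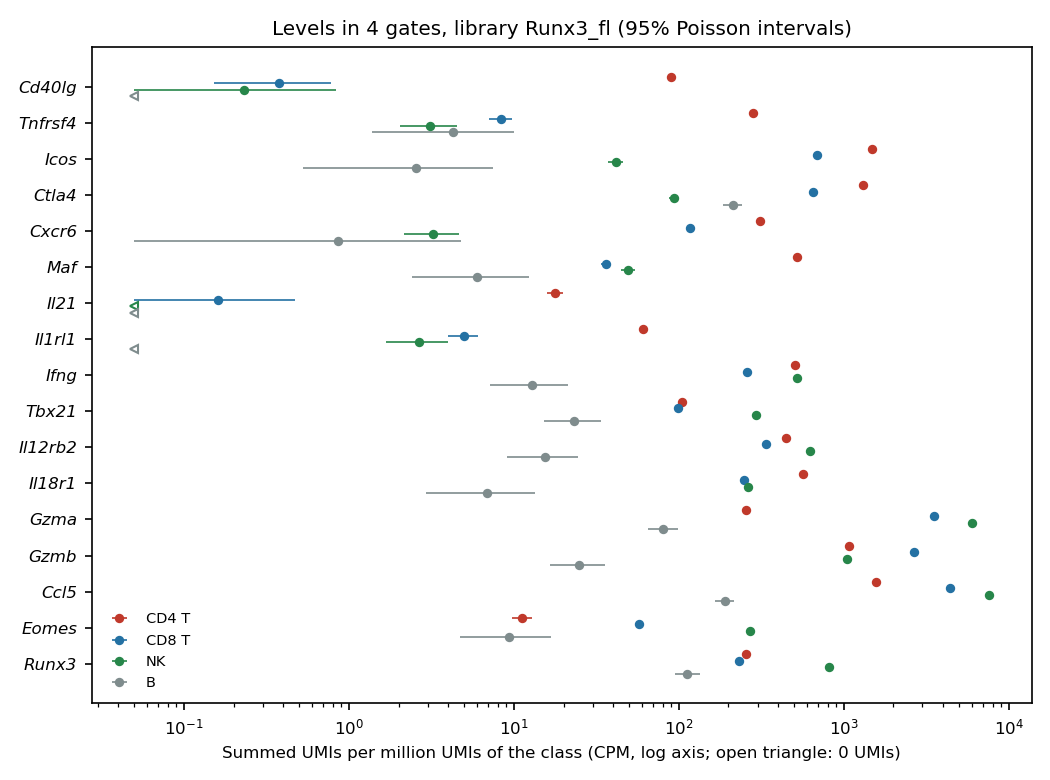
Level of 17 genes in CPM (log x axis, points with 95% Poisson intervals that stop at 0.05 CPM, open triangles for 0 UMIs) in CD4 T, CD8 T, NK and B cells of library Runx3_fl. Cd40lg, Tnfrsf4 and Maf lie highest in CD4 T cells, Ifng lies at 503 CPM in CD4 T cells beside 521 CPM in NK cells, and Gzma and Ccl5 lie lower in CD4 T cells than in CD8 T and NK cells.

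Cytotoxic genes were on the other side. Of 12 that passed, 7 were past the fold downwards against CD8 T cells and 0 upwards, with a median of -1.28. Gzma (chromosome 13, 113093825 to 113100981), which encodes granzyme A, was at 255 CPM (247 to 262) in CD4 T cells, 3529 CPM (3502 to 3556) in CD8 T cells, 6012 CPM in NK cells and 80.3 CPM (64.9 to 98.3) in B cells. Granzyme B was better represented in CD4 T cells. Gzmb was at 1072 CPM there, 2654 CPM in CD8 T cells and 24.8 CPM in B cells, and at 2000 UMIs it was found in 66.4%, 88.5% and 3.45% of the cells. Prf1, which encodes perforin, was at 34.8 against 84.3 CPM in CD8 T cells. The chemokine Ccl5 was at 1575 against 4382 CPM, and Eomes, the T-box factor of CD8 T and NK cells, at 11.2 against 57.4 CPM.

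Runx factors bind DNA with their partner Cbfb, and Runx3 is known for silencing Cd4 and supporting cytotoxic genes in CD8 T cells. Runx3, the targeted gene of the study, was at 256 CPM (249 to 264) in CD4 T cells of library Runx3_fl and 233 CPM (226 to 239.7) in CD8 T cells, a log2 ratio of 0.14 (0.08 to 0.20). It was at 814 CPM in NK cells and 113 CPM in B cells, so NK cells carried the most of these classes. Runx2 was at 1554 against 818 CPM in CD8 T cells, Runx1 at 726 against 642 CPM and Cbfb at 182 against 184 CPM, and 0 of the 4 were past the fold upwards and 0 downwards. In CD4 T cells of library Runx3, Runx3 was at 116 CPM (92.7 to 142). In the other kept cells it was at 321 and 196 CPM in the 2 libraries.

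The contrast of CD4 with CD8 T cells could be read again in library Runx3, where 6.17% of genes were past the fold, 3.61% upwards and 2.56% downwards. Of the 83 genes higher in CD4 T cells of library Runx3_fl, 63 passed the filter there, 63 had a ratio above 0 and 40 were past the fold, while 56.8% of all genes had a ratio above 0. Of the 29 lower genes 18 passed, 17 had a ratio below 0 and 11 were past the fold, beside 43.2% of all genes below 0. A gene could pass there through the class in which it was high, so these counts are in part set by the filter. Tnfrsf4 was at 181 against 4.24 CPM (log2 ratio 5.12), Maf at 383 against 55.2 CPM (2.77) and Gzma at 43.3 against 365 CPM (-3.04). These CD8 T cells also carried 9307 CPM of 7 neutrophil markers, with 0 of the 7 at 0, against 231 CPM in the CD4 T cells, and the part of those markers was not tested.

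Because the study turns on a Runx factor, the 250 bases before the annotated start are shown for 1 gene on each side of the contrast that holds the core letters bound by Runx proteins, and for Tnfrsf4, which holds none. The sequences are those of RefSeq for GRCm38.p6, and capitals mark TGTGGT or its reverse complement ACCACA. Cxcr6 is shown from chr9:123806227-123806476 (plus strand), Gzma from chr13:113100982-113101231 (minus strand) and Tnfrsf4 from chr4:156013445-156013694 (plus strand).
Cxcr6: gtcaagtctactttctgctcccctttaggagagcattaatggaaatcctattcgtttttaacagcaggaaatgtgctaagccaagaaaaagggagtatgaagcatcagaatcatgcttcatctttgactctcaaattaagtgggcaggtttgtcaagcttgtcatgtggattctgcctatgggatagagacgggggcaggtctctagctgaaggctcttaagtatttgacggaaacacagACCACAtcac
Gzma: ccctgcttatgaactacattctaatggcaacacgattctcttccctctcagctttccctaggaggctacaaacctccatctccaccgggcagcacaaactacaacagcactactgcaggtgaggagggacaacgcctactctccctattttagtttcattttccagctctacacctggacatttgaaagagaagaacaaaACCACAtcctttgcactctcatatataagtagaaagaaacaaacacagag
Tnfrsf4: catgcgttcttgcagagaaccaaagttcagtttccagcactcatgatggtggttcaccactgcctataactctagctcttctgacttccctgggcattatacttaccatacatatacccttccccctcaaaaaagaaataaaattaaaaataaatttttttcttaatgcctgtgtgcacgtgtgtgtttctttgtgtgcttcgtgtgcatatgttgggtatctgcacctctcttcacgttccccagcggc

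In Cxcr6 the letters begin 10 bases before the start and in Gzma 50 bases before it, both as ACCACA. The word is common, since 14.0% of 32841 promoters hold it on either strand within the same 250 bases. Of the 83 genes higher in CD4 T cells 65 had a promoter in the table and 8 of these (12.3%) held it. Of the 29 lower genes 23 had one and 6 (26.1%) held it, and among 2992 genes that passed the filter the share was 12.6%. The T-box letters TCACAC, also searched on both strands, were held by 8 of the 65 and 6 of the 23 genes and by 10.8% of the genes that passed the filter. None of the 3 promoters shown held them. A gene counted when any of its promoters held the letters, whereas the share of 14.0% is over single promoters. A match is a description of letters only.

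NK cells of library Runx3_fl were 966 cells with Ncr1 and Klrb1c UMIs and at most 1 Cd3 UMI. Of 3943 genes 818 (20.7%) were past the fold, 440 higher in CD4 T cells (11.2%) and 378 lower (9.59%), and without the cells with MHC class II UMIs the number was 898. CD4 T cells were higher in cell cycle genes, with 10 of 11 past the fold and a median of 1.96, and in glycolysis genes, with 7 of 10 and a median of 1.30, beside 0.07 over all genes. Mki67, a marker of cycling cells, was at 263 CPM in CD4 T cells, 272 CPM in CD8 T cells and 66.8 CPM in NK cells. Of the cytotoxic genes 9 of 12 were past the fold downwards and 0 upwards. Cxcr6 was at 309 CPM in CD4 T cells, 117 CPM in CD8 T cells and 3.22 CPM in NK cells. Of 10 tissue residency genes that passed the filter it was the only 1 past the fold against NK cells, with 0 downwards. The same held against CD8 T cells and against the other kept cells. The medians of the list were -0.44, 0.33 and 0.18, beside 0.07, 0.02 and 0.19 over all genes.

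CD4 T cells of library Runx3_fl differed among themselves. To compare cells of unequal depth each was thinned to 6000 UMIs, which kept 1166 of 1217 CD4 T cells, 1174 of 1224 CD8 T cells and 782 of 966 NK cells. At this depth 36.4% of CD4 T cells had no Ifng UMI, 23.1% had 1, and 5.83% (interval 4.56 to 7.34) had 10 or more, against 1.79% (1.11 to 2.72) of CD8 T cells and 5.12% (3.68 to 6.90) of NK cells. Ifng was thus unevenly spread. The 10% of CD4 T cells with the most Ifng held 58.6% of its UMIs, against 46.8% in CD8 T cells and 38.8% in NK cells, and 1 CD4 T cell held 174 of them.

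**Figure D3:**
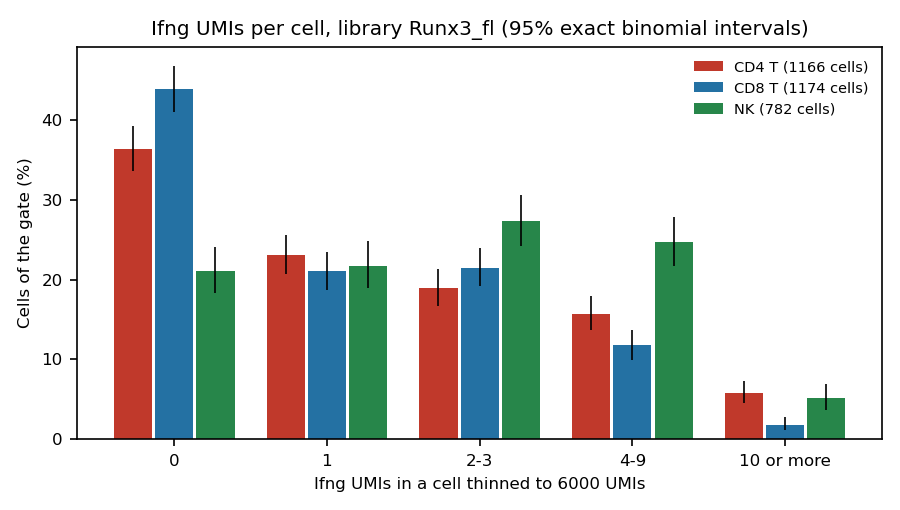
Share of CD4 T, CD8 T and NK cells of library Runx3_fl (y axis, percent, with 95% exact binomial intervals) by the number of Ifng UMIs in a cell thinned to 6000 UMIs (x axis). Cells with 10 or more are 5.83% of CD4 T, 1.79% of CD8 T and 5.12% of NK cells.

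Cells with an Ifng UMI more often carried UMIs of activation genes. Cd69, an early activation antigen, was found in 80.3% of 741 cells with Ifng and 64.0% of 425 without. Il2ra, the IL-2 receptor alpha chain, was found in 62.3% and 47.3%, and Mki67 in 44.8% and 30.4%. The naive factor Tcf7 was found in 7.56% and 16.2%, the other way round. These shares and those that follow are descriptions of cells of 1 library.

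Some CD4 T cells carried cytotoxic genes together. Gzma was found in 25.6% of CD4 T cells at 6000 UMIs, but 10% of the cells held 85.5% of its UMIs, and 48 cells had 10 or more, as did 750 of 1174 CD8 T cells. Of the 298 cells with Gzma, 25.2% carried Prf1, 11.7% Eomes and 20.8% the NK receptor gene Klrd1, against 9.33%, 1.15% and 9.45% of the 868 without. Il21 was found in 2.35% and 8.29%. At 2000 UMIs Gzma was found in 14.3% of CD4 T cells and 7.76% of B cells. The part of free RNA or of an NK or CD8 T cell in the same droplet was not tested. Nor was the part of CD8 T cells without a detected Cd8 UMI, and 279 of the 1217 members had exactly 1 Cd4 UMI.

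Other cytokines were found in small sets of cells. Il21 was found in 79 of 1166 cells, and these carried Areg in 29.1% and the checkpoint gene Lag3 in 29.1%, against 8.92% and 16.3% of the 1087 others. They had the glycolytic enzyme gene Hk2 in 50.6% against 33.0%. Il22, whose product acts in epithelial repair, was found in 31 cells, of which 45.2% carried Il1r1, a receptor for IL-1, against 2.03% of the others. Most of the Il22 cells also carried Ifng, 90.3% against 62.8%.

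Cells with Tcf7, the factor of naive and memory T cells, were 125 of 1166. They carried Bach2, a repressor of effector genes, in 86.4% against 60.9% of the others, and Tnfsf8 in 19.2% against 4.80%. Effector genes were less frequent in them. Havcr2, which encodes TIM-3, was in 19.2% against 55.9%, Gzmb in 60.0% against 89.3% and Cxcr6 in 47.2% against 74.9%. Cycling cells were frequent, with Mki67 in 39.5% of CD4 T cells, and those cells carried Cxcr6 in 64.0% against 77.2% of the cells without.

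**Figure D4:**
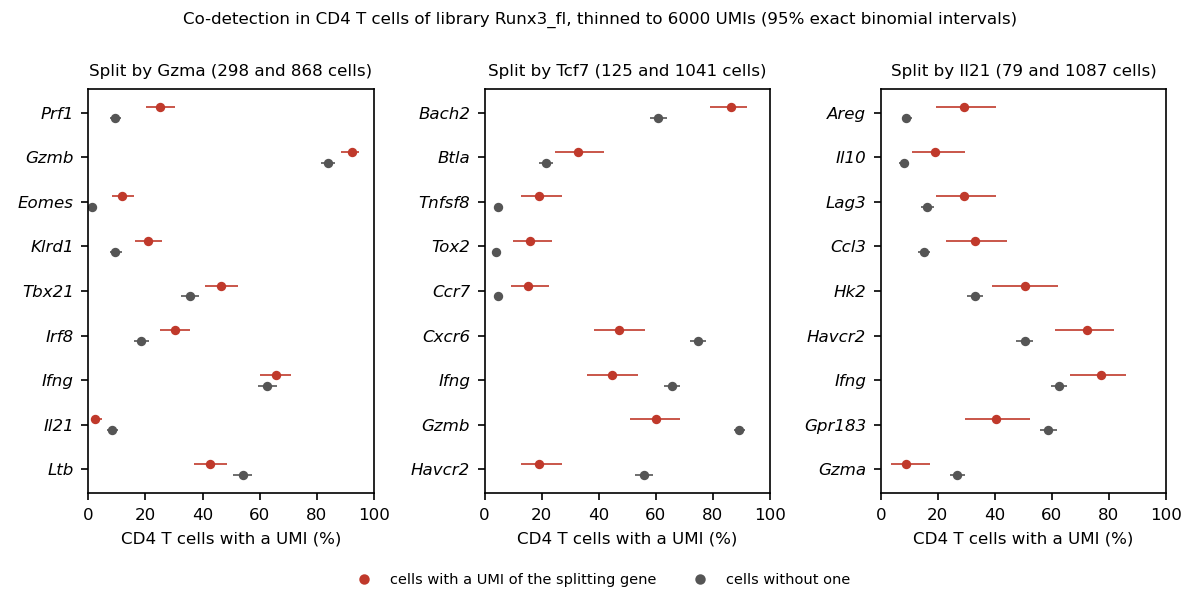
Share of CD4 T cells of library Runx3_fl with a UMI of each gene (x axis, percent, points with 95% exact binomial intervals) among cells with and without a UMI of Gzma, Tcf7 or Il21, all thinned to 6000 UMIs. Prf1 and Eomes are found more often with Gzma, Bach2 and Tnfsf8 with Tcf7, and Areg and Lag3 with Il21, while Havcr2 and Gzmb are found less often with Tcf7.

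Many beta chain V segments were in use. A Trbv UMI was found in 464 of 1217 CD4 T cells, over 22 of the 35 segments in the files. The most frequent was Trbv3 with 76 of 464 cells (16.4%, interval 13.1 to 20.1), followed by Trbv12-2 with 53 (11.4%). In CD8 T cells it was Trbv16 with 91 of 518 cells (17.6%). Reads can be shared between similar V segments and 29 CD4 T cells showed more than 1, so the shares are approximate.

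The CD4 T cells of library Runx3 were fewer and their gene levels differed. Exactly 1 Cd4 UMI was found in 46.2% of the 91 cells and 22.9% of the 1217. Without thinning, Cxcr6 was found in 13.2% of the 91 cells and 86.4% of the 1217, at median depths of 7345 and 13057 UMIs. Against the CD4 T cells of library Runx3_fl, 996 of 4068 genes (24.5%) were past the fold, 470 higher in library Runx3 (11.6%) and 526 lower (12.9%), and without the cells with MHC class II UMIs the number was 1078. With 1 library each the genotype, the animals, their sex and the handling cannot be told apart, and neither can fewer effector cells and less RNA per cell.

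Naive and central memory genes were higher in library Runx3, 8 of 10 past the fold and 0 downwards, with a median of 2.35 beside 0.02 over all genes. Tcf7 was at 436 CPM (390.3 to 485) against 28.3 CPM (25.8 to 30.9), and Lef1, its relative, at 797 against 208 CPM. Il7r, the receptor for the survival cytokine IL-7, was at 176 against 19.7 CPM. The homing receptor gene Ccr7, which is also a marker of migrating dendritic cells, was at 221 against 35.1 CPM. Without cells with 5 or more MHC class II UMIs Ccr7 was at 268 against 9.77 CPM and Tcf7 at 489.6 against 28.4 CPM. Klf2, which drives the egress receptor S1pr1, was at 359.8 against 56.7 CPM. Markers of other cells also differed between the CD4 T cells of the 2 libraries, in both directions. In library Runx3 the 8 NK cell markers were lower, at 42.0 against 160 CPM, and the 6 plasma cell markers too, at 437 against 612 CPM. Other lists were higher there. The 10 dendritic cell markers, Ccr7 among them, summed to 2117 against 584 CPM, the 8 B cell markers to 246 against 52.1 CPM and the 7 neutrophil markers to 231 against 44.5 CPM, with none at 0 in either library. Their part in the naive gene difference was not tested.

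Effector genes were lower. Of 8 cytotoxic genes 8 were past the fold downwards, with a median of -2.98, and of 11 TH1 genes 8 were and 0 upwards, with a median of -1.59. Ifng was at 140.5 CPM (115 to 169.8) against 503 CPM, and at 2000 UMIs it was found in 7 of 91 cells (7.69%, interval 3.15 to 15.2) against 36.9%. Nkg7, a granule protein gene, was at 61.7 against 854 CPM, and Cxcr6 at 39.4 against 309 CPM. The 8 NK cell markers also summed to less in these cells, 42.0 against 160 CPM. The part of RNA from NK cells in the effector gene difference was not tested. Cycling genes were lower as well, 10 of 11 past the fold, with a median of -2.55, and Mki67 was at 11.8 CPM from 9 UMIs against 263 CPM.

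CD8 T cells, of which 24.1% of 4013 genes were past the fold between the libraries (10.8% upwards and 13.3% downwards), differed in the same lists. There 5 of 9 naive genes were past the fold upwards, with a median of 1.51, 8 of 12 cytotoxic genes downwards, with a median of -1.70, and 11 of 12 cell cycle genes downwards, with a median of -2.04. The 7 neutrophil markers summed to 9307 CPM in CD8 T cells of library Runx3 and 29.8 CPM in those of library Runx3_fl. The part of RNA from neutrophils in this contrast was not tested. Runx3 itself was lower in CD4 T cells of library Runx3 (log2 ratio -1.14, interval -1.47 to -0.84). In CD8 T cells its log2 ratio was 0.68, thus higher in library Runx3 but within the fold. The difference between the 2 classes was not tested.

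**Figure D5:**
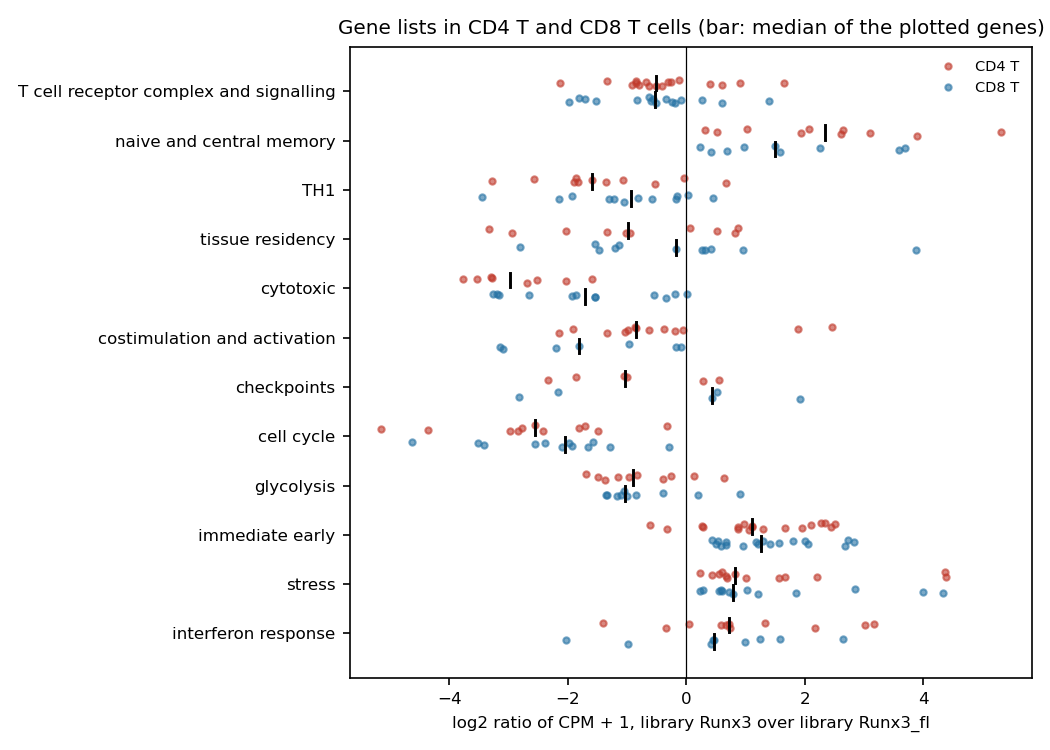
Log2 ratio of library Runx3 over library Runx3_fl (x axis, CPM plus 1) for genes of the lists that passed the filter, 1 point per gene, in CD4 T cells and CD8 T cells, with the median as a bar. Naive, immediate early and stress genes have medians above 0 in both classes and cell cycle and cytotoxic genes below 0.

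Helper genes were mostly within the fold or lower in library Runx3. Of 13 costimulation and activation genes 4 were past the fold downwards (Il2ra, Icos, Cd28 and Cd40lg) and 2 upwards (Tnfsf8 and Tnfsf11), with a median of -0.84. Cd40lg was at 43.3 against 89.6 CPM and Icos at 394 against 1480.5 CPM. Maf was at 383 CPM there and 519.8 CPM in library Runx3_fl, a log2 ratio of -0.44, and Tnfrsf4 at 181 and 282 CPM (-0.64). Tnfsf8 was at 257 against 45.9 CPM, and Tnfsf11 at 165 against 43.8 CPM. Il17a was at 38.1 CPM from 29 UMIs against 2.57 CPM, and was found in 4.40% of the 91 cells.

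Some stress genes and most immediate early genes were past the fold upwards in library Runx3 in CD4 T and CD8 T cells, and a few of them in B cells. The heat shock gene Hspa1a was at 784 CPM in CD4 T cells of library Runx3 and 37.2 CPM in library Runx3_fl, a log2 ratio of 4.36, with ratios of 3.99 in CD8 T cells and 3.20 in B cells. In B cells 11.8% of 3850 genes were past the fold, 3.09% upwards and 8.75% downwards. Of 13 stress genes 6 were past it upwards in CD4 T cells and of 18 immediate early genes 11, with medians of 0.83 and 1.11. In CD8 T cells 6 of 13 and 11 of 18 were, with medians of 0.79 and 1.26. In B cells 3 of 13 (Hspa1a, Hspa1b and Hsph1) and 2 of 18 (Zfp36 and Dusp1) were, with medians of 0.56 and 0.41. Fos, an immediate early factor, was at 298 against 60.4 CPM. The part of these genes in the other differences was not tested.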

How the data were processed

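Cells of mouse colon lamina propria were profiled with 10x Genomics 3' version 3 chemistry. The authors deposited a filtered matrix of UMI counts per gene and cell for each of 2 libraries. Per the file headers the counts were made by Cell Ranger 7.1.0, and the submitters' processing notes name build mm10 and Seurat 4. The annotation and the counting of intronic reads are not given in the sources used here. The deposited counts are whole numbers and were not normalized.

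The gates were applied to the counts as stated in the report, with the upper limit of 6000 genes as the treatment of doublets. No doublet caller was run. UMIs of a class were summed and given as CPM with exact 95% Poisson intervals, shares with Clopper-Pearson intervals, and ratios as log2 of CPM plus 1 with the exact conditional binomial interval of the ratio of the sums. A count of 0 allows 3 counts. Genes entered a comparison at 50 CPM and 10% of cells in either class, and a log2 ratio of 1 counted as past the fold. Thinning drew UMIs without replacement. The members and the 33 gene lists were chosen with earlier results of these data known. Named genes are members of those lists and the 12 genes with the largest ratio in each direction of each comparison. Of 403 named genes 401 matched GENCODE M21 (GRCm38) by gene ID. Simulated sums for CD4 T over CD8 T cells in library Runx3_fl, with 200 of 3590 genes changed by 2 log2 units, returned 99.5% of them close to that value. The simulated sums held counting error only, so they do not cover doublets, free RNA or differences between cells. A planned comparison of subsets within the CD4 T cells is not reported here because its definition rests on an item that is left out of this text, not because of its outcome. Alternatives are given in the closing section. The scripts ran in Python 3.11.15 with pandas 2.3.3 for tables, numpy 2.4.6 for sums and thinning, scipy 1.17.1 for intervals and matplotlib 3.10.9 for plots.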

Additional observations from a re-analysis of the deposited data

Results flagged for a closer look

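Plxnc1, which encodes a semaphorin receptor, stood on opposite sides in the 2 libraries when CD4 T cells were compared with CD8 T cells. Its log2 ratio was -1.06 (interval of the ratio -1.16 to -0.98) in library Runx3_fl, from 1435 and 3190 UMIs, and 1.11 (0.50 to 1.78) in library Runx3, from 60 and 34 UMIs. The difference between the libraries was not tested. The gene lies on chromosome 10, 94790866 to 94944835 in GRCm38, and was named after its values were seen. No other gene past the fold in both libraries had opposite signs in this contrast. Plxnc1 overlaps Gm24186 and Gm48718 on the same strand.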

How the results depend on the processing

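No paired analysis was possible because there was 1 library per group and no result came from a test. Of 65 alternative values 47 stayed within 1.5 times the count or within the interval of the share, and 18 did not. The share of CD4 T cells in library Runx3_fl was 7.89% with at least 2 Cd4 UMIs, 5.33% without cells that carried a UMI of Lyz2, H2-Aa, Cd79a, Csf3r or Ncr1, 8.37% with at most 4000 genes per cell and 9.15% with fewer than 5 MHC class II UMIs. In library Runx3 the limit on Cd4 UMIs, the removal of cells with those other UMIs and the MHC class II limit gave 0.60%, 0.343% and 0.686%. With the filter at 10 CPM, and with no filter but 10 UMIs, the genes past the fold numbered 1317 and 2592 for CD4 T over the other kept cells, 227 and 439 over CD8 T cells, 1637 and 2746 over NK cells and 1914 and 3916 between the libraries, because lower genes entered. The share of CD4 T cells with an Ifng UMI was 24.6% at 1000 UMIs, 63.6% at 6000 and 75.0% without thinning. The limit of 5 MHC class II UMIs and the depth of 6000 UMIs were chosen after seeing the data. Leaving out a replicate was not possible with 1 library per group. In the 91 cells of library Runx3 a gene with 0 UMIs could be at up to 3.94 CPM, so differences of low genes were not detectable at this depth.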
